A study of Mus musculus with 10 samples.

Results

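Imprinted genes were followed across the RNA-seq of male mouse embryonic stem cells (mESCs). A list of 44 genes known to be imprinted in the mouse, from 19 imprinted clusters, was looked up by symbol in the deposited table of 25965 features. Of these, 40 had a row (Kcnq1ot1, Rian, Mirg and Peg13 were not analysed here). Genes above 0 on the deposited log2 scale in 5 or more of the 10 libraries were described, which left 27 genes in 14 clusters. Where imprinted, 13 of the 27 are known to be expressed from the maternal copy and 13 from the paternal copy, and Casd1 was not assigned to either. The terms maternally and paternally expressed are used below in this sense only. Imprinting can be limited to some tissues, as with Ube3a, and whether these classes hold in mESCs was not measured. The other 13 genes with a row were low and are named further on.

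All libraries came from 2 independent male C57/Bl6 lines, which the study derived and first grew under its own method, and each group held 2 libraries, replicates 1 and 2, 1 per line. The 5 groups were p0, taken before the lines were split between methods, and p10 Keniry2022, p20 Keniry2022, p10 Mulas2019 and p20 Mulas2019, the same lines after 10 or 20 passages under either method. Every group was kept in 2i/LIF, a defined medium with inhibitors of MEK and GSK3 and the cytokine LIF. Keniry2022 is the study's own method, with daily passaging of cells without an attachment substrate, and Mulas2019 is the reference method, with less frequent passaging on gelatin. The methods also differ in plating density, media volume and treatment of the plates. The study gives p20 Keniry2022 and p10 Mulas2019 as equal in days of culture. Comparisons of the methods at the same passage, or with passages pooled, therefore also differ in days. The 4 libraries of a method are thus the same lines at different passages, so the spread between them is not a spread between independent derivations.

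Genomic imprinting leaves a gene expressed mainly from the copy inherited from the mother or from the father, according to DNA methylation laid down in the egg or the sperm at imprinting control regions. The zinc finger protein ZFP57 binds the methylated hexamer TGCCGC at many of these regions and, with its partner TRIM28, helps keep the mark through the early embryo. Many imprinted genes act on the growth of the fetus and the placenta, the paternally expressed ones tending to promote it and the maternally expressed ones to restrain it. mESCs in 2i medium are widely demethylated, and imprints are known to be fragile in culture. The values here are totals over both copies, since the cells are of a single inbred strain, and which copy the reads came from was not measured.

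RefSeq start-site windows on GRCm38.p6 were available for 36 of the 44 genes (52 windows). The 250 bases before the start held a median of 10 CpG dinucleotides, against 6 over all 32851 windows of the table, and TGCCGC was present on either strand in 9 of the 52 windows (17.3%), from 8 genes, against 8.68% of all windows. The windows of 5 genes are shown because they had the largest differences between the methods among described genes with a window (Grb10, Mest, Ppp1r9a and Igf2r) or rose under both methods (Plagl1). Plagl1 was picked from several such genes. Peg3, Usp29, Snrpn, Nnat, Zrsr1 and Blcap also rose under both methods and had 0 matches, and Casd1 did so with 1 match. Any link of the hexamer to the direction of change was not tested. For each gene the window with the most CpGs is given, 5′ to 3′ on the strand of the gene, and capitals mark the hexamer in either orientation. Mest is at chr6:30737800-30738049 (plus strand, 14 CpGs, 2 matches), Plagl1 at chr10:13090582-13090831 (plus strand, 19 CpGs, 1 match), Grb10 at chr11:12037421-12037670 (minus strand, 40 CpGs), Igf2r at chr17:12769707-12769956 (minus strand, 27 CpGs) and Ppp1r9a at chr6:4903061-4903310 (plus strand, 35 CpGs), the last 3 with 0 matches.
Mest: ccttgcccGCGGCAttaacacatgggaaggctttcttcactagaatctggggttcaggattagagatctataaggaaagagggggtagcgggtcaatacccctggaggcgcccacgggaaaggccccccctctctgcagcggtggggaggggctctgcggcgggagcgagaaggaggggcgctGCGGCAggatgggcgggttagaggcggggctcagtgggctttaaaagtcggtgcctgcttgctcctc
Plagl1: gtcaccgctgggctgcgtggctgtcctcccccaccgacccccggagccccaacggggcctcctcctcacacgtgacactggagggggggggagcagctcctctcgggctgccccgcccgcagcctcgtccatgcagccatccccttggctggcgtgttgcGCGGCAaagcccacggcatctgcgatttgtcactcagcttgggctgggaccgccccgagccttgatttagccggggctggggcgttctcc
Grb10: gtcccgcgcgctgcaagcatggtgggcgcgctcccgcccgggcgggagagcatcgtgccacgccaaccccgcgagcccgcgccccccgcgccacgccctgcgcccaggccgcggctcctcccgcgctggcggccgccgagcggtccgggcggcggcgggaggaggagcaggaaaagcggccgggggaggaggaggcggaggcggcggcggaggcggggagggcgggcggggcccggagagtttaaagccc
Igf2r: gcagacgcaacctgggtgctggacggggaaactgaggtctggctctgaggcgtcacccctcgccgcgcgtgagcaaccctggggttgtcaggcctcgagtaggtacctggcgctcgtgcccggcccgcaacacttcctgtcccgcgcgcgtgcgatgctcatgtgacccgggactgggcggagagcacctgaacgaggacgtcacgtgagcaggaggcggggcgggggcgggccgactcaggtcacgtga
Ppp1r9a: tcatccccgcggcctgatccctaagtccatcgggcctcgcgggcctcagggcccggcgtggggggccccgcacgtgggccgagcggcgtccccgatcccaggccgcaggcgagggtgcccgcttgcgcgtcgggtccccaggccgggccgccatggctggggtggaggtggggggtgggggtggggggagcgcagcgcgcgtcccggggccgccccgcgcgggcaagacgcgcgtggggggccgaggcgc
A match describes these letters only, and imprinting control regions can lie outside a start-site window.

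Library totals worked out from the table lay between 24053996 and 30236823 reads. All 8 markers of naive mESCs were above 0 in at least 5 libraries, while none of the 7 fibroblast feeder markers was. Y-linked genes were present (4578 to 8140 reads) in replicate 2 and nearly absent (13 to 132 reads) in replicate 1 of p0, p10 Keniry2022, p10 Mulas2019 and p20 Mulas2019, but in p20 Keniry2022 the order was turned (6659 reads in replicate 1 and 48 in replicate 2). The numbers of that group therefore went against those of the others, which bears on any value that uses the numbers and not on group means. The study reports from DNA-seq that a male line lost its Y chromosome during derivation, before the culture methods were compared. Any comparison of the lines is therefore also a comparison of libraries with many and with few Y-linked reads. The p0 replicate 1 library also stood apart by exon length: its median deviation from the mean of all libraries was 0.79 lower on the log2 scale in the longest tertile of features than in the shortest, against 0.066 lower in p0 replicate 2 and 0.18 to 0.20 higher in the Mulas2019 libraries, with Keniry2022 between -0.030 and 0.046. In bulk RNA, fewer cells of a type and less RNA per cell cannot be told apart.

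Values are log2 RPKM, reads scaled to exon length and to the library total, so that levels can be compared between genes. Cd81, a tetraspanin of the Kcnq1 cluster, had the highest mean over the 10 libraries (6.79), followed by Impact, an inhibitor of the kinase GCN2 (5.17), Snrpn, a component of small nuclear ribonucleoproteins (5.07), and Copg2, a coat protein of COPI vesicles (4.86). The lowest of the 27 were H19 (0.20), Ppp1r9a (0.60), Nespas (0.60) and Usp29 (0.61), and these last 3 did not differ beyond their spread over libraries. Blcap, the host gene of Nnat, varied least (2.77 to 3.05), and Peg10, a retrotransposon-derived gene needed for the placenta, varied most (-0.64 to 2.66). Taken from start to end, introns included, 12 of the 27 genes overlap another feature of the table. Mest with Copg2, Nnat with Blcap, Nespas with Gnas and Igf2r with Airn are among them. Overlap of exons alone was not computed. Since the strand setting is not given, reads from any exon sequence that such a pair shares cannot be told apart. The Usp29 row covers only 2610 bases of exon.

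In 4 clusters with known opposite partners, both genes were compared. H19, the growth-restraining noncoding RNA of the maternal copy, was at 0.21 and 0.32 at p0, 0.06, -0.26, -0.033 and -0.57 under Keniry2022 (p10 then p20, replicate 1 then 2) and 0.18, 0.55, 0.62 and 0.92 under Mulas2019, from 47 to 123 reads a library. Its partner Igf2, a fetal growth factor of the paternal copy, was at -3.40 and -2.69 at p0, at -2.25, -2.61, -2.80 and -3.23 under Keniry2022 and at -3.79, -2.31, -2.79 and -2.39 under Mulas2019 (10 to 35 reads). Both were low in every library, and only H19 passed the filter.

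In the Dlk1-Dio3 cluster, Meg3, the maternal noncoding RNA, was at -1.73 and -2.26 at p0, at -0.53, -0.12, -1.34 and -0.67 under Keniry2022 and at -0.20, -0.30, -0.20 and -0.17 under Mulas2019. All 8 cultured libraries lay above both p0 libraries. Dlk1, its paternal partner and a Notch-family ligand, was at -3.50 and -4.09 at p0 (12 and 9 reads), at -3.24, -2.54, -2.66 and -3.21 under Keniry2022 and at -2.01, -2.37, -2.16 and -2.32 under Mulas2019 (31 to 35 reads). The Mulas2019 libraries were the highest and the methods did not overlap, with few reads behind each value.

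Airn, the silencing RNA of the paternal Igf2r copy, which is known to be switched on as mESCs differentiate, had 0 and 0 reads at p0, 1, 2, 1 and 3 under Keniry2022 and 2, 0, 3 and 4 under Mulas2019, so it was near or at 0 throughout. Zim1, the maternal zinc finger gene beside Peg3, was at -5.45 and -4.62 at p0, at -3.23, -3.39, -3.21 and -3.29 under Keniry2022 and at -3.29, -3.20, -3.85 and -3.84 under Mulas2019 (2 to 12 reads), with both p0 libraries the lowest. Of the other genes under the filter, Inpp5f had the most reads (122 to 193), Sgce had 15 to 60, Slc22a18 11 to 35, Asb4 12 to 29, Nap1l5 17 to 28, Magel2 1 to 13 and Rtl1 0 to 11, and Rasgrf1 had 0 in every library. With no filter on low values 24.2% of all 25965 features were called between the methods (13.6% lower under Keniry2022), and 2 of these 13 genes passed the test between the methods: Sgce, which encodes epsilon-sarcoglycan (-0.90 ± 0.23 SE, adjusted p 0.0265), and Dlk1 (-0.70 ± 0.19 SE, adjusted p 0.0293), both lower under Keniry2022.

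The first question was whether imprinted genes differ between cells kept under Keniry2022 and Mulas2019, with p10 and p20 pooled. Each method then had 4 libraries. By limma with Benjamini-Hochberg adjustment over 11654 features, 13 of the 27 genes were called, 5 higher and 8 lower under Keniry2022. Of all features tested, 51.5% were called (25.9% higher and 25.5% lower), so the share of imprinted genes called, 48.1%, was near the background. Their median difference was -0.071 against -0.003 over all features, and the median absolute difference 0.20 against 0.18. The 4 libraries of one method did not overlap with those of the other in 10 of the 27 genes (37%), against 46.5% of all features.

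**Figure D1:**
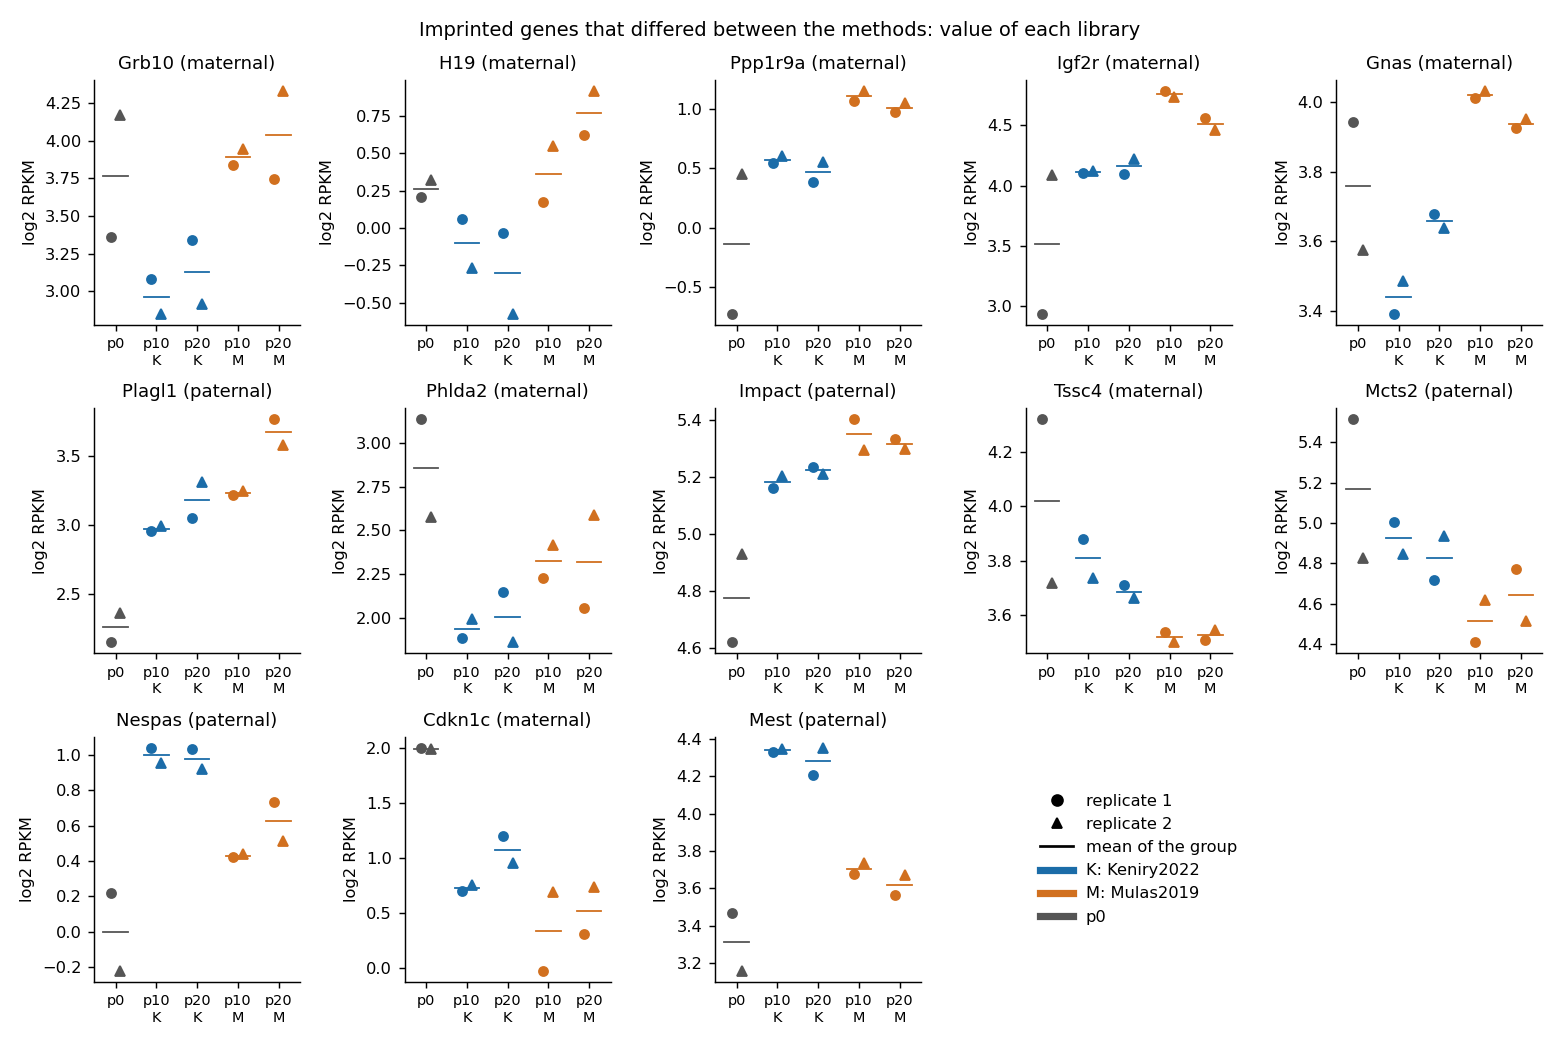
Value of each library (log2 RPKM, vertical axis) for the 13 imprinted genes that differed between the methods, by group (horizontal axis, K for Keniry2022 and M for Mulas2019). Circles are replicate 1, triangles replicate 2 and lines the group means, and each panel has its own scale. Mest lay between 4.21 and 4.35 in the Keniry2022 libraries, above the Mulas2019 (3.56 to 3.74) and p0 libraries (3.16 and 3.47).

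Mest, a paternally expressed gene of mesoderm and placenta with the fold of a hydrolase (chr6:30723547-30748455, plus strand, GRCm38), was the gene with the largest increase under Keniry2022. It was at 3.47 and 3.16 at p0, at 4.33, 4.35, 4.21 and 4.35 under Keniry2022 and at 3.67, 3.74, 3.56 and 3.67 under Mulas2019. The 3 sets did not overlap, with Keniry2022 the highest and p0 the lowest. The methods differed by 0.65 ± 0.050 (SE; 1.57-fold, adjusted p 3.56e-05), in 4 of 4 matched pairs. Copg2, which lies tail to tail with Mest and overlaps its end on the other strand, differed by 0.056 ± 0.036 (adjusted p 0.207) in the same 4 of 4 pairs.

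The other genes higher under Keniry2022 were Nespas, Tssc4, Mcts2 and Cdkn1c. Nespas, the paternal antisense RNA of the Gnas cluster, was at 0.22 and -0.22 at p0, at 1.04, 0.96, 1.03 and 0.92 under Keniry2022 and at 0.42, 0.44, 0.74 and 0.51 under Mulas2019, from 73 to 183 reads. The methods did not overlap and differed by 0.46 ± 0.097 (adjusted p 0.00317). Gnas, the stimulatory G protein alpha subunit of the same cluster (chr2:174284320-174346744), moved in the other direction: it was at 3.94 and 3.57 at p0, at 3.39, 3.49, 3.68 and 3.64 under Keniry2022 and at 4.01, 4.03, 3.92 and 3.95 under Mulas2019. It was lower under Keniry2022 by a log2 difference of -0.43 ± 0.065 (adjusted p 0.000465), again with no overlap of the methods.

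Tssc4, a spliceosome assembly factor of the Kcnq1 cluster, was higher by 0.23 ± 0.051 (adjusted p 0.00426; 0.223 in the model of 5 groups) without overlap, and Mcts2, a retrogene related to a translation factor, by 0.30 ± 0.081 (adjusted p 0.0118; 0.201 in the model of 5 groups) with overlap. Cdkn1c, which encodes the CDK inhibitor p57, differed by 0.48 ± 0.18 (adjusted p 0.0472). Its call was lost without any of 5 single libraries, among them p10 Mulas2019 replicate 1, without which the difference was 0.33 (adjusted p 0.105).

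Grb10, an adaptor that restrains insulin signalling (chr11:11930508-12038683, minus strand), had the largest decrease under Keniry2022. It was at 3.36 and 4.17 at p0, at 3.08, 2.85, 3.34 and 2.92 under Keniry2022 and at 3.84, 3.95, 3.75 and 4.33 under Mulas2019. The methods did not overlap, and the difference was -0.92 ± 0.13 (1.89-fold lower, adjusted p 0.000419). Of the p0 libraries, replicate 1 lay between the methods, just above the highest Keniry2022 value, and replicate 2 lay within the Mulas2019 range. Igf2r, the receptor that clears Igf2 (chr17:12682406-12769664, minus strand), was at 2.94 and 4.09 at p0, at 4.10, 4.12, 4.10 and 4.22 under Keniry2022 and at 4.79, 4.73, 4.56 and 4.46 under Mulas2019. Again the methods did not overlap (-0.50 ± 0.069, adjusted p 0.00032; 0.136 in the model of 5 groups), and p0 replicate 1 lay far below every other library.

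Ppp1r9a, which encodes the actin-binding phosphatase regulator neurabin (chr6:4902917-5165661, plus strand), was at -0.72 and 0.45 at p0, at 0.54, 0.60, 0.38 and 0.55 under Keniry2022 and at 1.06, 1.15, 0.97 and 1.04 under Mulas2019, which put Keniry2022 lower by a log2 difference of -0.54 ± 0.088 (adjusted p 0.000809; 0.137 in the model of 5 groups). For H19 the difference was -0.77 ± 0.19 (adjusted p 0.00648), with the values given above. Its Mulas2019 libraries alone met the filter of this fit, so its direction is tied to the filter. Neither gene overlapped between the methods, and both had low levels.

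Impact was lower under Keniry2022 by a small margin (-0.13 ± 0.036, adjusted p 0.0135; 0.259 in the model of 5 groups). Phlda2, which restrains placental growth (-0.35 ± 0.11, adjusted p 0.0246), and Plagl1, a zinc finger factor that slows proliferation (-0.37 ± 0.12, adjusted p 0.029), overlapped between the methods. The call on Phlda2 was lost without any of 4 single libraries (adjusted p 0.0559 to 0.0661) and that on Plagl1 without any of 5 (0.0568 to 0.0772).

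**Figure D2:**
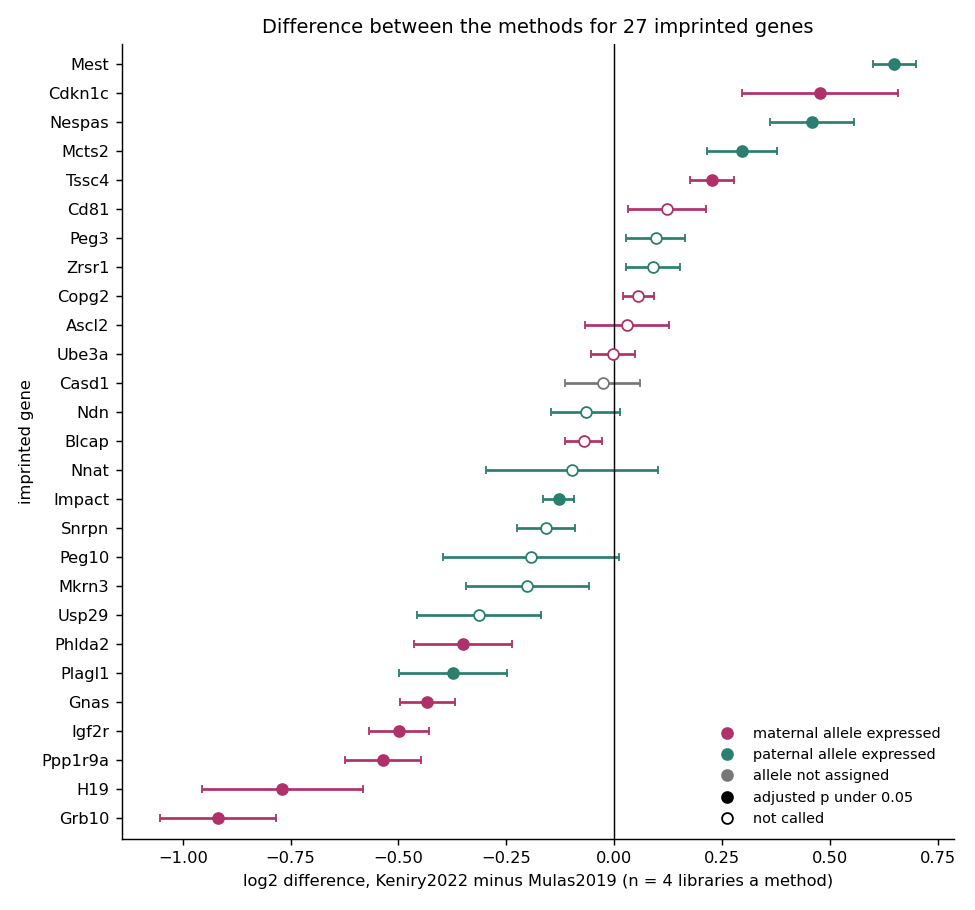
Log2 difference, Keniry2022 minus Mulas2019 (horizontal axis), for the 27 imprinted genes (vertical axis), with the standard error as bars and 4 libraries a method. Filled points passed limma at an adjusted p under 0.05; colours give the copy known to be expressed, and the differences run from -0.92 (Grb10) to 0.65 (Mest).

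By the expressed copy, 8 of the 13 maternally expressed genes were called, 2 higher (Tssc4 and Cdkn1c) and 6 lower (Grb10, H19, Ppp1r9a, Igf2r, Gnas and Phlda2), with a median difference of -0.071. Of the 13 paternally expressed genes 5 were called, 3 higher (Mest, Nespas and Mcts2) and 2 lower (Impact and Plagl1), with a median of -0.097. Over all features 51.5% were called, 25.9% higher and 25.5% lower. Of the 6 lower maternally expressed genes, Grb10, Igf2r, Ppp1r9a and Gnas were in the longest tertile by exon length. The median difference of all features in that tertile was -0.093. By cluster, none of the 4 genes of the Snrpn cluster (Snrpn, Ndn, Mkrn3 and Ube3a), neither of the Peg3 pair (Peg3 and Usp29) and neither of the Nnat pair was called, while the Gnas and Kcnq1 clusters held genes called in both directions. Among genes not called, Usp29 differed by -0.31 ± 0.14 (adjusted p 0.093) and Snrpn by -0.16 ± 0.068 (adjusted p 0.0751), and Ube3a, the ubiquitin ligase imprinted in neurons, by -0.003 ± 0.052 (adjusted p 0.966).

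Within a passage the groups of 2 libraries left less room for a call. The model of the 5 groups called 986 of 11561 features at p10 (8.53%; 3.76% higher and 4.77% lower) and 249 at p20 (2.15%; 0.614% higher and 1.54% lower). At p10 the imprinted genes called were Mest (0.64 ± 0.115, adjusted p 0.0202) and Gnas (-0.58 ± 0.12, adjusted p 0.0283), and at p20 Mest (0.66 ± 0.115, adjusted p 0.0355). When the methods were matched in days of culture, p20 Keniry2022 against p10 Mulas2019 (743 features called, 6.43%; 2.84% higher and 3.59% lower), Mest was again the imprinted gene called (0.58 ± 0.115, adjusted p 0.0321). These comparisons share libraries. With the replicate block 0 imprinted genes were called at p20 and 0 when matched in days. Over all alternatives the adjusted p of Mest ran from 0.000674 to 0.31 at p20 and from 0.000639 to 0.245 matched in days, and its call in both was lost without any single cultured library. At p10 0 genes were called without any one of the p10 libraries and 1 without any one of the p20 libraries. Leaving out either p0 library, which takes the p0 spread out of the model, raised the genes called to 11 at p10, 9 at p20, and 8 (without replicate 1) or 9 (without replicate 2) when matched in days. In these fits 47.9% to 48.1% of all features were called at p10, 36.2% to 36.3% at p20 and 43.1% matched in days. The difference between p10 and p20 in the effect of the method was called in 0 of 11561 features (405 at an unadjusted p under 0.05), with Mkrn3, a ubiquitin ligase gene of the Snrpn cluster, at an unadjusted p of 0.028 (adjusted p 1).

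The second question was how far imprinted genes moved from the starting cells. All 8 cultured libraries lay above both p0 libraries in 13 of the 27 genes (48.1%), against 12.9% of all 11561 features, and below both in 2 genes, Cdkn1c and Cd81, against 13.2%. The 13 were Mest, Plagl1, Peg3, Usp29, Peg10, Snrpn, Nnat, Impact, Zrsr1 and Nespas of the paternally expressed genes, 10 of 13, Igf2r and Blcap of the maternally expressed genes, 2 of 13, and Casd1. These counts are descriptions over the same 2 p0 libraries, with no test. The median difference from p0 of the paternally expressed genes was 0.44 (p10 Keniry2022), 0.52 (p20 Keniry2022), 0.55 (p10 Mulas2019) and 0.54 (p20 Mulas2019), and that of the maternally expressed genes -0.21, -0.10, 0.13 and 0.18, with medians over all features of 0.0018, 0.0044, 0.0056 and 0.034. Against p0 replicate 2 alone the maternal medians were -0.24, -0.11, -0.20 and -0.13, so that the Mulas2019 medians changed sign without p0 replicate 1, and with a correction for exon length that of p20 Mulas2019 was -0.017. The paternal medians against p0 replicate 2 alone were 0.39, 0.55, 0.56 and 0.46. The 4 comparisons share the p0 libraries.

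**Figure D3:**
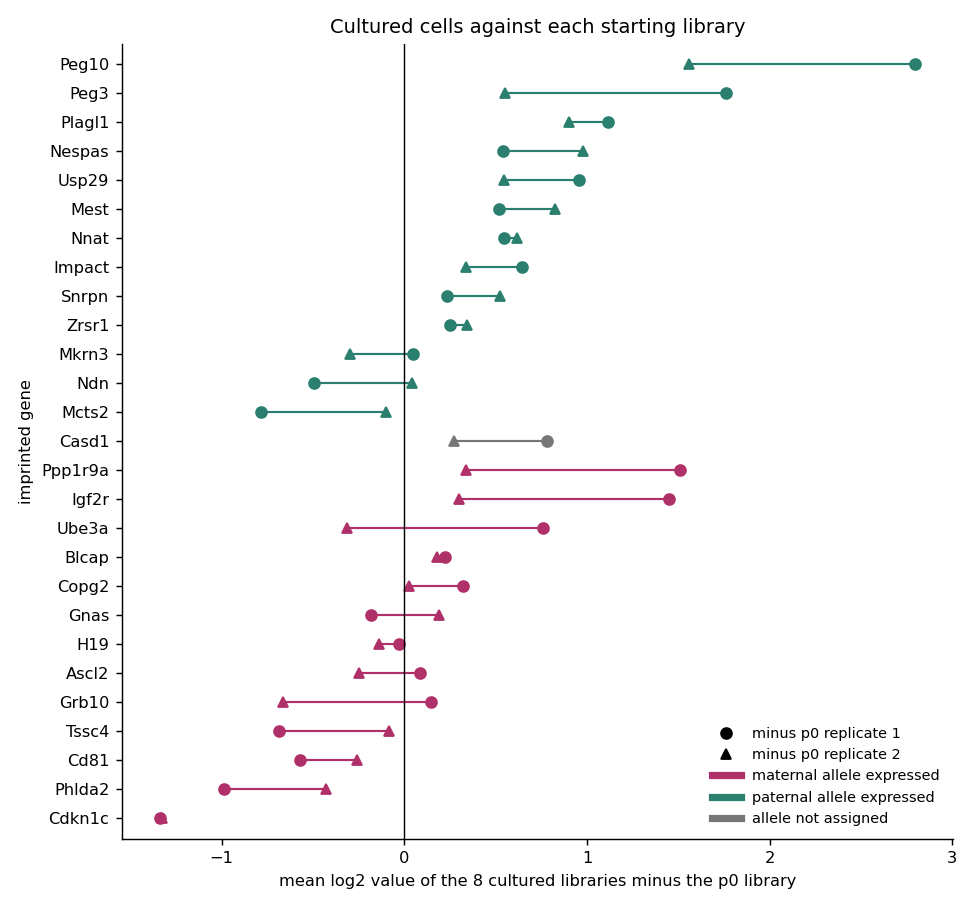
Mean log2 value of the 8 cultured libraries minus p0 replicate 1 (circles) and minus p0 replicate 2 (triangles) on the horizontal axis, for the 27 imprinted genes (vertical axis) grouped by the copy known to be expressed. Both points lay above 0 in 15 genes, below 0 in 6 and on either side in 6, and the distance between the points of a gene is the difference between the p0 libraries.

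Peg10 moved the furthest. It was at -0.64 and 0.60 at p0, at 1.58, 1.85, 2.66 and 2.15 under Keniry2022 and at 2.00, 2.21, 2.25 and 2.57 under Mulas2019, from 103 to 1182 reads. Both p0 libraries were below every cultured one. Against p0 it was higher by 2.13 ± 0.37 at p10 Mulas2019 (adjusted p 0.0129) and 2.43 ± 0.37 at p20 Mulas2019 (adjusted p 0.011). At p20 Keniry2022 the difference was also 2.43, with an adjusted p of 0.0649.

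Plagl1 was at 2.15 and 2.36 at p0, at 2.96, 2.99, 3.05 and 3.31 under Keniry2022 and at 3.21, 3.24, 3.76 and 3.58 under Mulas2019. It rose at p10 Mulas2019 (0.97 ± 0.12, adjusted p 0.00753), p20 Mulas2019 (1.42 ± 0.12, adjusted p 0.00431) and p20 Keniry2022 (0.92 ± 0.12, adjusted p 0.0488), and the p20 Mulas2019 libraries were the highest. Cdkn1c moved the other way, at 2.00 and 1.99 at p0, at 0.70, 0.75, 1.196 and 0.95 under Keniry2022 and at -0.025, 0.69, 0.30 and 0.73 under Mulas2019. It fell at p10 Mulas2019 (-1.66 ± 0.25, adjusted p 0.00884) and p20 Mulas2019 (-1.48 ± 0.25, adjusted p 0.0126), with p0 above all cultured libraries.

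Peg3, a paternally expressed zinc finger factor, showed how far a value can rest on 1 library. It was at 2.46 and 3.67 at p0, at 4.17, 4.32, 4.15 and 4.43 under Keniry2022 and at 4.21, 4.25, 4.19 and 4.04 under Mulas2019. The difference of p10 Mulas2019 from p0 was 1.17 ± 0.33 (adjusted p 0.0337), but 0.56 against p0 replicate 2 alone and 1.77 against p0 replicate 1 alone. Nnat, neuronatin, was at 0.37 and 0.30 at p0, at 0.70, 1.07, 0.43 and 1.28 under Keniry2022 and at 0.82, 1.02, 1.36 and 0.67 under Mulas2019, and was called in none of the 4 comparisons.

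In calls, the p0 comparisons were uneven. Keniry2022 cells differed from p0 in 23 features at p10 (0.199%; 0.0432% higher and 0.156% lower), Mest among them (1.03 ± 0.115, adjusted p 0.0383), and 23 at p20 (0.199%; 0.0519% higher and 0.147% lower), with Mest (0.97 ± 0.115, adjusted p 0.0488) and Plagl1. With the replicate block 0 imprinted genes were called in both. Under Mulas2019 3816 features were called at p10 (33%; 15.7% higher and 17.3% lower), with 11 imprinted genes, 9 higher (Mest, Plagl1, Peg3, Usp29, Peg10, Ppp1r9a, Snrpn, Igf2r and Impact) and 2 lower (Cdkn1c and Cd81). At p20 Mulas2019 3386 were called (29.3%; 14.7% higher and 14.6% lower), with 12 imprinted genes, 11 higher (Plagl1, Peg3, Usp29, Peg10, Ppp1r9a, Casd1, Snrpn, Igf2r, Impact, Zrsr1 and Nespas) and 1 lower (Cdkn1c). Against p0 replicate 2 alone, the lone sample being assumed to vary like the other groups, 10, 8, 15 and 15 imprinted genes were called in the order p10 Keniry2022, p20 Keniry2022, p10 Mulas2019 and p20 Mulas2019, with 5.23%, 4.61%, 40.5% and 37.5% of all features called in the same fits. Against p0 replicate 1 alone 20, 21, 19 and 22 imprinted genes were called, with 64.3%, 66.5%, 71.8% and 71.1% of all features. Without any single cultured library 0 were called in both Keniry2022 comparisons. At p10 Mulas2019 the count was 0 without its replicate 1, 1 without its replicate 2 and 7 without any other cultured library (15.4% to 17.3% of all features), and at p20 Mulas2019 0, 1 and 5 likewise (11.1% to 13.2% for the last). The size of the difference between the p0 libraries was like that of other genes, with a median absolute value of 0.37 over the 27 genes and 0.36 over all features.

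From p10 to p20 within a method limma called 0 features under either method (289 under Keniry2022 and 772 under Mulas2019 at an unadjusted p under 0.05), and thus 0 imprinted genes. At an unadjusted p under 0.05 there were 0 imprinted genes under Keniry2022 and 3 under Mulas2019, Mkrn3 (0.56 ± 0.14), Plagl1 (0.44 ± 0.12) and Cd81 (0.35 ± 0.11), with adjusted p of 0.46, 0.487 and 0.549. Replicate 2 against replicate 1, the 2 lines, was compared in the 8 libraries other than p20 Keniry2022, with the group as a term. The lines also differed in Y-linked reads, so this comparison cannot separate the line from the loss of the Y chromosome. Of 11676 features 5 were called (0.0428%; 298 at an unadjusted p under 0.05) and 0 imprinted genes, the nearest being Peg10 (0.51 ± 0.19, adjusted p 0.751).

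Since exon length moved with the libraries, the 27 genes were also described by length. Their exon lengths ran from 757 bases (Phlda2) to 14531 (Ppp1r9a). In the pooled comparison the median difference of all features was 0.10 in the shortest tertile, 0.009 in the middle one and -0.093 in the longest. The 8 imprinted genes of the longest tertile had a median of -0.40, the 9 of the middle one -0.026 and the 10 of the shortest -0.019. Of the genes lower under Keniry2022, Grb10, Igf2r, Ppp1r9a, Gnas and Plagl1 were in the longest tertile. After a correction for exon length Grb10 (-0.77), Igf2r (-0.35), Ppp1r9a (-0.33), Gnas (-0.26) and H19 (-0.79) were still called, Mest was at 0.69 and Nespas at 0.47, while Plagl1 (-0.25, adjusted p 0.106), Impact (-0.10, adjusted p 0.0506) and Cdkn1c (0.43, adjusted p 0.0656) lost their calls, and Peg3 (0.29, adjusted p 0.00327) and Copg2 (0.11, adjusted p 0.0316) gained one. Between p0 replicate 1 and replicate 2 the imprinted genes differed by a median of 0.30, -0.30 and -1.11 from the shortest to the longest tertile, against 0.37, 0.036 and -0.38 over all features. With the correction, the differences from p0 of the 13 genes above both p0 libraries, which had been picked for lying there, stayed above 0 in all 4 comparisons (0.064 to 2.21), but several became smaller and 6 calls against p0 were lost. At p20 Mulas2019 these were Peg3 (1.05 to 0.41, adjusted p 0.0603), Ppp1r9a (1.14 to 0.45, adjusted p 0.0542), Zrsr1 (0.33 to 0.19, adjusted p 0.191) and Casd1 (0.58 to 0.49, adjusted p 0.0531). The others were Mest at p10 Mulas2019 (adjusted p 0.0625) and Plagl1 at p20 Keniry2022 (adjusted p 0.0552). Calls were gained by Blcap at p10 and p20 Mulas2019, Nespas at p10 Keniry2022 and Peg10 at p20 Keniry2022.

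**Figure D4:**
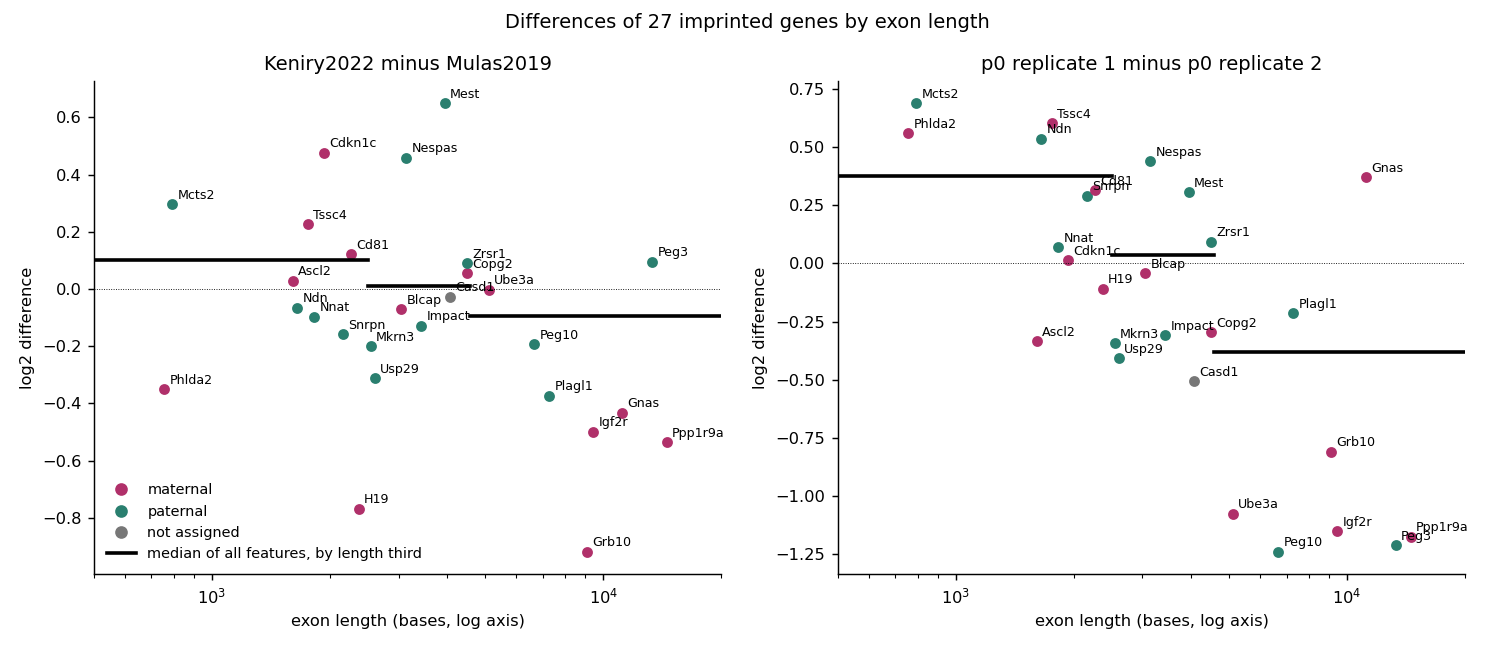
Log2 difference of the 27 imprinted genes (vertical axes) against exon length in bases (horizontal log axes), for Keniry2022 minus Mulas2019 on the left and p0 replicate 1 minus replicate 2 on the right. Points are genes coloured by the copy known to be expressed and black lines the medians of all features in each tertile by length, 0.10, 0.009 and -0.093 on the left and 0.37, 0.036 and -0.38 on the right; Peg10, Peg3, Ppp1r9a, Igf2r and Ube3a lay below -1 on the right.

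Of 18 factors that set, keep or remove methylation and repressive marks at imprinted regions, all were expressed and 11 were called between the methods, 9 higher and 2 lower under Keniry2022 (median difference 0.09). Their share called, 61.1%, stood beside 51.5% of all features. Among them were Zfp57, whose protein binds the hexamer (0.32 ± 0.11, adjusted p 0.0369), and its partner Trim28 (0.30 ± 0.050, adjusted p 0.00075). Also higher were the de novo methyltransferase Dnmt3b (0.78 ± 0.084, adjusted p 1e-04), its cofactor Dnmt3l (0.75 ± 0.10, adjusted p 0.00027) and Eed, a subunit of Polycomb repressive complex 2 (0.67 ± 0.042, adjusted p 2.45e-05). The demethylating dioxygenase Tet3 was lower (-0.82 ± 0.11, adjusted p 0.000275), as was the zinc finger gene Zfp445 (-0.20 ± 0.054, adjusted p 0.0104). For Tet3 the Mulas2019 libraries alone met the filter (0.70 to 0.90, against -0.20 to 0.12 under Keniry2022). The maintenance methyltransferase Dnmt1 differed by -0.023 ± 0.043 (adjusted p 0.682). Zfp57 was at 6.27, 6.32, 5.89 and 6.10 under Keniry2022 and 5.64, 5.66, 6.01 and 6.01 under Mulas2019, so that the p20 libraries of the methods lay close and the p10 libraries apart.

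Of 12 host genes and neighbours of imprinted genes, 7 were tested and 3 were called, beside 51.5% of all features. Commd1, the host of Zrsr1 (0.26 ± 0.050, adjusted p 0.00178), and Mcts1, the parent gene of Mcts2 (0.19 ± 0.058, adjusted p 0.021), were higher under Keniry2022. Trappc9, the host of Peg13, was lower (-0.36 ± 0.086, adjusted p 0.0056). H13, the host of Mcts2, differed by 0.074 ± 0.096 (adjusted p 0.539). Since several imprinted genes are known from the placenta, markers of trophectoderm were read beside them. Of 8 such markers 3 were above 0 in at least 5 libraries. All 3 were called lower under Keniry2022, beside 25.5% of all features: Krt18 (-1.13 ± 0.16), Eomes (-0.40 ± 0.12) and Tfap2c (-0.34 ± 0.10). For Krt18 the Mulas2019 libraries alone met the filter (0.89 to 1.08). Under Keniry2022 it was at -0.023, -0.38, -0.44 and 0.31, and it had 29 to 84 reads a library. Its direction is therefore tied to the filter and adds nothing to the count. The markers under the filter did not all go this way. Cdx2 and Gata3 had higher means under Keniry2022 and Elf5, Hand1 and Krt8 lower ones, all with overlap between the methods. The 8 summed to 85.7 to 102 RPM (reads scaled to the library total, not to length) under Keniry2022, 106 to 132 under Mulas2019 and 91.8 and 79.4 at p0, and 82.6% to 89.9% of the reads in the sum were from Tfap2c. The sum was lower under Keniry2022 than under Mulas2019. Imprinted genes went both ways: H19 and Phlda2 were called lower, Mest (0.65 ± 0.050) and Cdkn1c (0.48 ± 0.18) were called higher, and Peg10 (-0.19 ± 0.20) was not called. At p0 Phlda2 was at 3.13 and 2.58. Under Mulas2019 the sum was 132 and 127 at p10 and 106 and 108 at p20, and the H19 values were higher at p20. Any part of trophectoderm-like cells in the differences between the methods was not tested. Of 8 primitive endoderm markers only Sparc was above 0 in at least 5 libraries, and germ layer markers summed to 12.7 to 17.7 RPM in a library.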

How the data were processed

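RNA-seq of 10 libraries from male C57/Bl6 mESCs was analysed, grouped by the titles of the samples. The labels name the methods New (Keniry2022) and Old (Mulas2019). The study's methods give trimming of single-end reads, HISAT2 alignment to mm10 and quantification in SeqMonk, whereas the submitters' processing notes name bcl2fastq and TopHat2 2.0.12. Neither source gives the annotation release or strand setting. The authors deposited log2 values per feature. The table is named for log CPM, but features without reads sit at a floor set by their length. The values were therefore read as log2 RPKM with 0 reads entered as 0.9 reads, and library totals were worked out from these floors. The exon length of a feature was then sought as one giving whole reads in every library. More than 1 length did so for 25963 of the 25965 features. For features with reads, the GENCODE length was taken where it was among them, and otherwise the shortest. Exon lengths and reads given here rest on that choice. No column of values was left unused.

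The deposited log2 values were tested with limma 3.58.1 in R 4.3.3 (eBayes with an intensity trend, two-sided, Benjamini-Hochberg over all features tested, threshold 0.05), checked on simulated data. Features above 0 in 50% or more of the libraries of a fit entered it. The comparison of methods used 8 libraries with p10 and p20 pooled. Other comparisons used all 10 libraries with the 5 groups as terms. Library totals of 24053996 to 30236823 reads limit the precision of genes with few reads.

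Replicate numbers stand for cell lines per the study. The deviations of same-numbered libraries correlated between groups (r 0.171 to 0.63 over 11561 features), except for p20 Keniry2022 (r -0.118 to -0.698), whose Y-linked reads also went against its numbers. Group comparisons were fitted without a block, and with it as an alternative. The lines were compared without p20 Keniry2022, with group as a term. Replicates are lines carried through passages, and p-values measure the spread between these libraries.

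The genes, the other lists and the promoter motif were chosen with earlier results of these data known. Genes were described when above 0 in at least 5 libraries. The value of each library is given for genes called between the methods or lines with an absolute difference of at least 0.5 and for opposite partners of a cluster, and values of other genes shown in full were chosen after they were seen. Alternatives were other filters, quantile normalization, median centring, a pseudocount of 0.5, voom on recovered reads, the block, passage as a term, the model of 5 groups and leaving out each library, and, chosen after seeing the data, a correction for exon length and the block with the p20 Keniry2022 numbers crossed. Promoter windows came from RefSeq (GRCm38.p6).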

Additional observations from a re-analysis of the deposited data

Results flagged for a closer look

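Of 54 sets of 4 libraries (27 imprinted genes under 2 methods), 3 had a library far from the others by Dixon's test at the 95% level. Chance flags about 1 in 20 such sets. Mest in p20 Keniry2022 replicate 1 was at 4.21 against 4.33 to 4.35 in the other Keniry2022 libraries (gap 0.854 of the range), which is still above every Mulas2019 library. Copg2 in p10 Keniry2022 replicate 2 was at 4.87 against 4.93 to 4.94 (0.843 of the range). Igf2r in p20 Keniry2022 replicate 2 was at 4.22 against 4.10 to 4.12 (0.847 of the range), below every Mulas2019 library. The p20 Keniry2022 replicate numbers went against the Y-linked reads of the other groups.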

How the results depend on the processing

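In the pooled comparison Mest, Grb10, Gnas, Nespas and H19 kept their calls under every alternative that gave a value (the stricter filter left out H19 and Nespas). The 13 called genes gave 243 values under the alternatives, of which 214 stayed called in the same direction, 29 lost the call and 0 reversed. The number called was 6 in the model of 5 groups, in which 19.2% of all features were called and Igf2r, Ppp1r9a, Tssc4, Mcts2, Impact, Phlda2 and Cdkn1c lost their calls. With 1 library left out the number was 11 to 14, beside 43.6% to 49.3% of all features. Among genes not called, the sign turned for Nnat (0.081 with quantile normalization, -0.234 to 0.051 with 1 library left out), Casd1 (0.019 with the length correction, 0.088 with quantile normalization, -0.099 to 0.019 with 1 left out), Copg2 (-0.027) and Ndn (0.008) with quantile normalization, Ube3a (0.071 length, 0.010 median centring, -0.048 to 0.025 with 1 left out) and Ascl2 (-0.030 length, -0.038 to 0.097 with 1 left out). The cause was not tested.

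With the replicate block (p20 Keniry2022 numbers as labelled) the imprinted genes called were 0 at p10 and 0 at p20 Keniry2022 against p0, 0 between the methods at p20 and 0 matched in days, and no other count moved by over 1.5 times. With those numbers crossed the counts were 13 pooled, 2 at p10, 0 at p20, 1 matched in days, and against p0 0, 0, 12 and 10. Shares of all features are not set beside these counts. The same holds for the counts with the length correction, the stricter filter, voom and median centring. Whether imprinted genes moved apart from other features under these alternatives was not tested.

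Against p0, p10 Keniry2022 had 2 genes with the length correction and 0 with the stricter filter (log2 above 2) or voom, and p20 Keniry2022 1 with median centring or no filter and 0 with the stricter filter or voom. Matched in days there were 2 with the length correction and 0 with no filter, at p20 between the methods 2 with the length correction, and at p20 Mulas2019 against p0 7 with the stricter filter, which leaves fewer genes. With no filter 0.173% of all features were called at p20 Keniry2022 against p0 and 3.02% matched in days. With 1 library left out the counts ran from 0 to 20 (p10 Keniry2022 against p0), 0 to 21 (p20 Keniry2022), 0 to 19 (p10 Mulas2019) and 0 to 22 (p20 Mulas2019), from 0 to 11 between the methods at p10, 0 to 9 at p20 and matched in days, and 0 to 2 from p10 to p20 Mulas2019. The high ends came without a p0 library. Depth limits genes with few reads, such as H19 (47 to 123 reads), Dlk1 (9 to 35) and Igf2 (10 to 35). No alternative called an imprinted gene between the lines.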
